A study of Homo sapiens with 8 samples.

Results

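The BMP arm of TGFβ superfamily signalling was followed in Panc-1 cells through 9 listed genes, namely ID1, ID2, ID3 and ID4, the BMP SMADs SMAD1, SMAD5, SMAD9 and SMAD6, and the ligand BMP4. The genes were taken by name and not by a rule on their measured values, although earlier results of these data were known. Of the 9 genes, 8 had a row among the 13307 genes of the expression table, and ID4 was not analysed here. Panc-1 is an established human cell line from a carcinoma of the pancreatic duct with an intact SMAD4 gene, so all results describe a single cell line. The cells received control siRNA (siControl) or siRNA against PHF13 (siPHF13), a PHD finger protein that reads H3K4me3, and were left untreated or cultured from the next day with 10 ng/ml TGFβ for 48 h. This gave 4 groups of 2 libraries each, siControl, siPHF13, siControl + TGFβ and siPHF13 + TGFβ. All cells were transfected and grown in serum-containing medium, and no BMP ligand was added in any group. Poly(A) RNA was sequenced, and the values are gene counts normalized by the authors with DESeq2.

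BMP ligands bind pairs of type I and type II receptors, which phosphorylate the receptor-activated SMADs SMAD1, SMAD5 and SMAD9. These join SMAD4, the partner shared with the TGFβ branch, and enter the nucleus. SMAD6 is an inhibitory SMAD that is itself induced by BMP signals and preferentially dampens this branch. The ID genes are classical direct targets. ID proteins carry a helix-loop-helix domain without a basic DNA-binding region, so they capture E proteins and keep them from binding DNA. TGFβ can raise or lower ID genes depending on the cell type and on time, and in many epithelial cells prolonged TGFβ represses ID1.

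The promoters of ID1, ID3 and SMAD6 are shown because these 3 genes stand for the patterns described here, a target with little difference between groups, a target that rose with TGFβ and the inhibitory SMAD. Each line gives the 250 bases before the RefSeq start site on GRCh38.p14, 5′ to 3′ on the coding strand, and capitals mark GTCT on either strand, the core of the SMAD binding element. The windows are chr20:31605039-31605288 for ID1 on the plus strand, chr1:23559502-23559751 for ID3 on the minus strand and chr15:66701986-66702235 for SMAD6 on the plus strand.
ID1: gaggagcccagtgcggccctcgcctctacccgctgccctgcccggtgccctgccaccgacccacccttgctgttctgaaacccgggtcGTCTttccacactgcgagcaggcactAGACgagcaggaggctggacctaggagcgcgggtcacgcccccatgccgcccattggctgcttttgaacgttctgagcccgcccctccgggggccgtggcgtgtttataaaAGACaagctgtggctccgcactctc
ID3: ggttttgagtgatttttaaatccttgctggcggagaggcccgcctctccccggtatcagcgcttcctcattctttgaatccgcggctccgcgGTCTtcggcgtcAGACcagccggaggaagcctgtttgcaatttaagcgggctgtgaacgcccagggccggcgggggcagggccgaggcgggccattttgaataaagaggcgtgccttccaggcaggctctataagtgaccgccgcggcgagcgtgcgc
SMAD6: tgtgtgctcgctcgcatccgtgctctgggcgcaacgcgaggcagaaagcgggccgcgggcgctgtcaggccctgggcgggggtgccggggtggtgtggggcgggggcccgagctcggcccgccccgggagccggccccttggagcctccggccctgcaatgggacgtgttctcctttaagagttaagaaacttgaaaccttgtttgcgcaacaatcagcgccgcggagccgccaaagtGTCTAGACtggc

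GTCT on either strand was found 3 times in the ID1 window, 2 times in the ID3 window and 2 times in the SMAD6 window, where the matches adjoin as the palindrome GTCTAGAC next to the start site. A match to GTCT is common, since 77.5% of the 35116 promoter windows of this length held at least 1, with a mean of 1.55 per window. The palindrome was searched for after it had been seen in the SMAD6 window, and it was present in 64 windows or 0.182%. The motif GGCGCC, bound by SMAD1 and SMAD5 complexes, was in none of these 3 windows, against 16.4% of all windows. The E-box CANNTG, to which E proteins bind, was also in none of them, against 61.8% of all windows. A match describes letters and not binding, and the known BMP response element of ID1 lies further upstream than its window.

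The libraries held 39196214 to 46700806 reads on genes. PHF13, the targeted gene, lay between 1662 and 1804 normalized counts in the untreated siControl libraries and between 524 and 558 in the siPHF13 libraries, and it fell by 1.68 on the log2 scale. With TGFβ it was 1586 and 1709 in siControl and 513 and 529 in siPHF13 libraries. All 7 genes of a list of direct TGFβ targets rose past both thresholds in siControl cells with TGFβ, as did 3.27% of all genes. In siPHF13 cells 6 of 7 passed both thresholds, where 1.35% of all genes did in either direction. This list was chosen with earlier results of these data known, so its counts are no independent check of the treatment. The 5 epithelial and ductal markers KRT7, KRT8, KRT18, KRT19 and EPCAM were present. With TGFβ KRT19 fell by 0.84 and KRT8 by 0.68 on the log2 scale in siControl cells. There KRT18 (-0.57) passed the adjusted p only, and EPCAM (-0.34) and KRT7 (0.05) passed neither threshold. With TGFβ in siPHF13 cells KRT8 (-0.36), KRT19 (-0.33) and KRT18 (-0.30) passed the adjusted p only, and EPCAM (-0.17) and KRT7 (0.05) neither. EPCAM rose by 0.78 with depletion without TGFβ, where KRT19 (0.25) and KRT18 (-0.33) passed the adjusted p only. KRT8 (-0.16) and KRT7 (-0.02) passed neither threshold there. In TGFβ-treated cells EPCAM rose by 0.94 and KRT19 by 0.76 with depletion, while KRT8 (0.15), KRT18 (-0.07) and KRT7 (-0.01) passed neither threshold. Of 11 markers of leukocytes, endothelium, acini and islets only CD68, a lysosomal protein that also occurs outside leukocytes, was in the table. CD68 lay between 6137 and 7666 normalized counts in siControl and between 10524 and 13400 in siPHF13 libraries, with and without TGFβ. It moved with depletion as SMAD5 did. The part of CD68 and of the epithelial markers in any result was not tested. The labels do not say whether the libraries of a group came from separate cultures, so the p-values measure only the spread between libraries, which may be technical.

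A gene was called where limma's adjusted p, taken over all 13307 genes, was under 0.05 and its log2 fold change exceeded 0.58 in size. Among the 8 genes, SMAD5 was called higher in siPHF13 than in siControl cells, as were 7.95% of all genes, and 0 were called lower, against 10.4% of all genes. Past the adjusted p alone, 2 of the 8 were higher (23.1% of all genes) and 1 was lower (24.3%). With TGFβ in siControl cells ID3 was called higher (3.27% of all genes) and 0 lower (1.52%), while by adjusted p alone 3 were higher (9.21%) and 0 lower (6.67%). In TGFβ-treated cells depletion gave 0 called higher (8.81% of all genes) and SMAD6 called lower (11.7%), and by adjusted p alone 1 higher (24.5%) and 2 lower (25.9%). With TGFβ in siPHF13 cells 0 of the 8 were called, where 1.35% of all genes were, although 4 had an unadjusted p under 0.05. Wherever limma called 0 of the 8 in a direction, edgeR and DESeq2 on recovered reads also called 0. Without adjustment 1 gene each had a p under 0.05 in the directions with a count of 0 in the first 3 comparisons. With 8 genes a count of 1 is not read as a result about the set, and the genes are described singly.

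**Figure D1:**
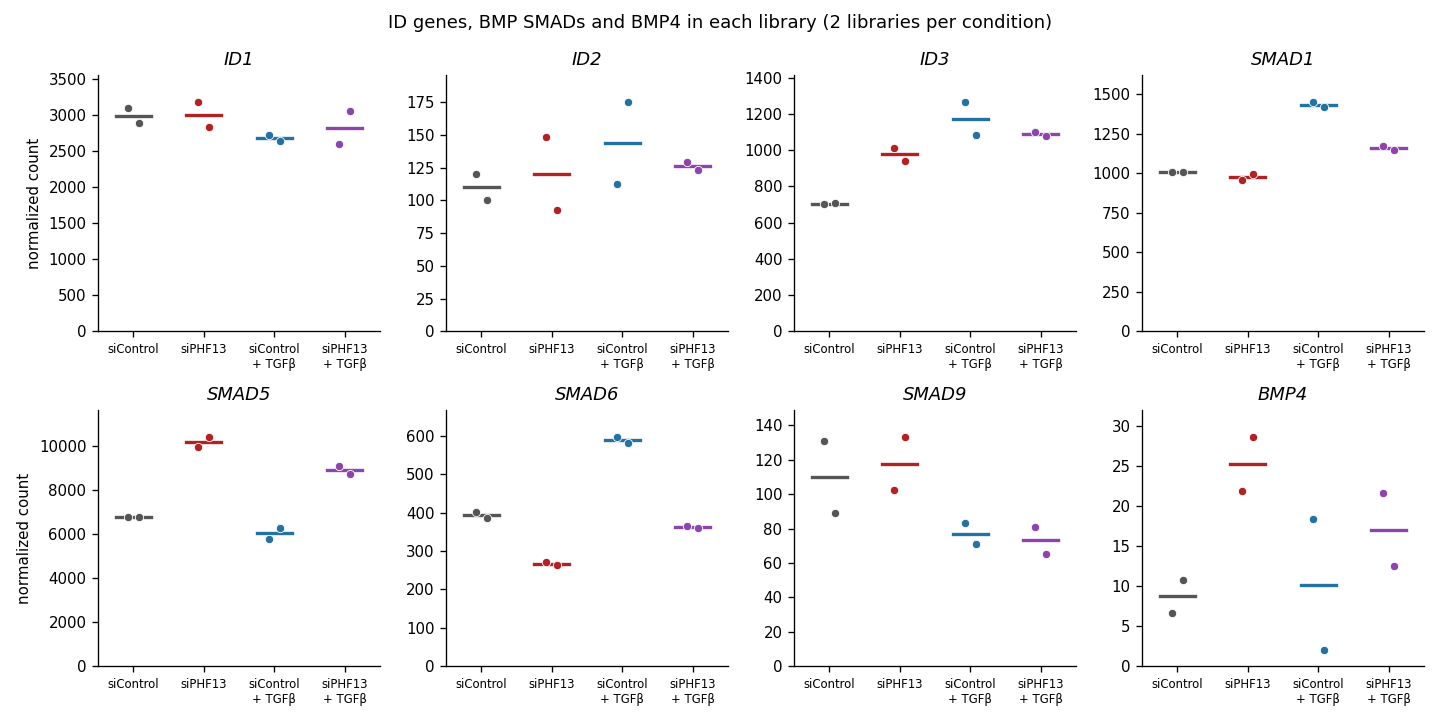
Normalized count of each gene (y axis, linear, from 0, scaled per gene) in the 4 groups, with 1 point per library and a bar at the mean of 2 libraries. SMAD5 is higher in both siPHF13 groups than in both siControl groups, SMAD6 and SMAD1 are highest in siControl + TGFβ, and ID3 is lowest in siControl.

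BMP4, the only ligand of the list, was covered by few reads. Its normalized counts were 6.64 and 10.8 in siControl, 21.9 and 28.6 in siPHF13, 18.3 and 2.06 in siControl + TGFβ, and 21.6 and 12.5 in siPHF13 + TGFβ. The siPHF13 libraries lay above the siControl libraries without TGFβ, while the TGFβ-treated groups overlapped. In reads, siControl held 7 and 12 and siControl + TGFβ held 17 and 2. The difference between siPHF13 and siControl was 1.45 on the log2 scale (SE 0.79, 95% interval -0.24 to 3.15, limma adjusted p = 0.148). It passed the threshold only when the spread was estimated from fewer libraries, namely in a fit of the libraries compared alone (adjusted p = 0.0412) and without siControl + TGFβ replicate 2 (adjusted p = 0.0474). For TGFβ in siControl cells the fitted log2 difference was -0.31 although the mean was higher with TGFβ, because the log scale weights the library at 2.06 more. Its sign turned to 1.02 without that library. The difference between the TGFβ-treated groups was 1.18 and not called, and reached 2.51 (adjusted p = 0.0190) without siControl + TGFβ replicate 1.

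Among the receptor-activated SMADs, SMAD5 held most of the RNA. Per kb of the GENCODE canonical transcript, SMAD5 had 965 to 969 normalized counts in siControl, SMAD1 had 336 to 337 and SMAD9 had 16.0 to 23.5. SMAD5 therefore made up 72.9% and 73.3% of the 3 genes' summed level per kb in siControl, SMAD1 made up 25.3% and 25.5%, and SMAD9 stayed under 2% in all 8 libraries, with a highest share of 1.77%.

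SMAD5 was the gene of the list with the clearest difference after depletion. It had 6797 and 6769 normalized counts in siControl and 9950.5 and 10421 in siPHF13, and with TGFβ 5808 and 6271 in siControl and 9106 and 8764 in siPHF13 cells. Every siPHF13 library lay above every siControl library. SMAD5 rose 1.50-fold without TGFβ (log2 fold change 0.59, SE 0.06, limma adjusted p = 4.35e-06), just past the fold threshold, and the call was lost without siPHF13 replicate 2 (0.55). With TGFβ the log2 difference was 0.57 (SE 0.06, adjusted p = 5.41e-06), just under the fold threshold, and it passed without siControl + TGFβ replicate 2 (0.62) or siPHF13 + TGFβ replicate 2 (0.59). The depletion difference thus had nearly the same size in both settings, and the interaction was -0.02 (95% interval -0.21 to 0.17). The transcript is long (7012 bases) and low in GC (36.9%), and after a spline adjustment for GC and transcript length within each library the differences were 0.74 without and 0.79 with TGFβ, which passed both thresholds. With TGFβ the log2 difference was -0.17 in siControl cells (adjusted p = 0.0828) and -0.19 in siPHF13 cells (adjusted p = 0.147).

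SMAD1 showed the opposite arrangement, with a response to TGFβ and no detectable difference after depletion alone. It had 1011 and 1009 normalized counts in siControl and 955 and 998 in siPHF13. With TGFβ it had 1449 and 1416 in siControl cells and 1173 and 1148 in siPHF13 cells, so that all TGFβ-treated libraries lay above all untreated ones. The difference with TGFβ in siControl cells was 0.50 on the log2 scale (SE 0.08, adjusted p = 0.000780), past the adjusted p but under the fold threshold. In siPHF13 cells it was 0.25 (adjusted p = 0.150). Between the TGFβ-treated groups SMAD1 was lower by 0.30 in siPHF13 cells (limma adjusted p = 0.00700), also under the fold threshold. The difference between both TGFβ responses was -0.25 (95% interval -0.50 to -0.01) and did not pass after adjustment (adjusted p = 0.509). Depletion alone gave -0.05 (95% interval -0.23 to 0.13).

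SMAD9 had the lowest level per kb of the SMADs. Its normalized counts were 131 and 89.2 in siControl, 102 and 133 in siPHF13, 83.0 and 71.0 in siControl + TGFβ, and 81.0 and 65.4 in siPHF13 + TGFβ. Both TGFβ-treated groups lay below both untreated groups, and depletion did not separate the groups with or without TGFβ. The log2 differences with TGFβ were -0.49 (SE 0.26, adjusted p = 0.251) in siControl and -0.67 (SE 0.26, adjusted p = 0.244) in siPHF13 cells, neither of which passed. Replicates of siControl differed by 37.9% of their mean, which limits what can be seen at this level.

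The shares of the 3 receptor-activated SMADs shifted accordingly. SMAD5 made up 80.8% and 80.7% of their summed level per kb in siPHF13, 62.5% and 64.9% in siControl + TGFβ, and 76.2% and 76.0% in siPHF13 + TGFβ. SMAD1 made up 18.1% and 18.0%, 36.4% and 34.2%, and 22.9% and 23.3% in these groups. The summed level per kb was 1318 and 1330 in siControl and 1326 and 1379 in siControl + TGFβ, so TGFβ went with a different composition at a similar sum. In depleted cells it was 1756 and 1843 without and 1704 and 1644 with TGFβ, above all siControl libraries. The shares are descriptions of 2 libraries per group, and RNA per cell and number of cells cannot be told apart in bulk libraries.

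**Figure D2:**
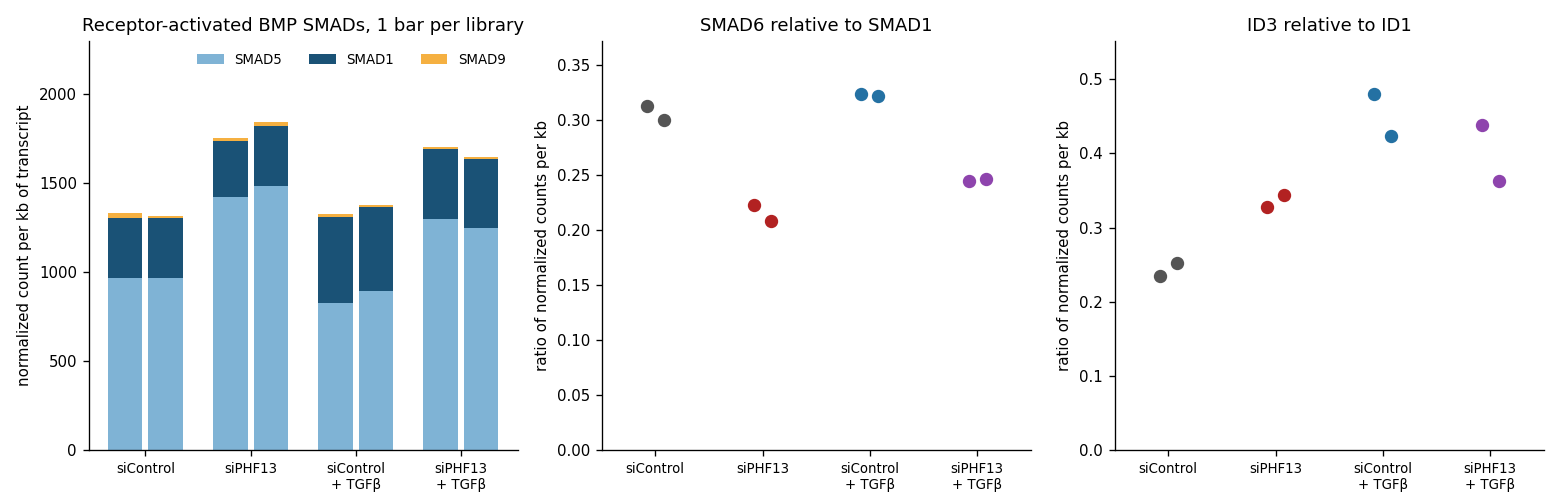
Left, normalized counts per kb of transcript (y axis) of SMAD5, SMAD1 and SMAD9 stacked in 1 bar per library. Middle and right, the ratio of normalized counts per kb of SMAD6 to SMAD1 and of ID3 to ID1 in each library, where SMAD6 relative to SMAD1 is at 0.300 or more in all siControl libraries and at 0.247 or less in all siPHF13 libraries.

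SMAD6, the inhibitory SMAD of the list, lay higher with TGFβ and lower after depletion. It had 403 and 386 normalized counts in siControl, 271 and 264 in siPHF13, 597 and 581 in siControl + TGFβ, and 366 and 361 in siPHF13 + TGFβ. No 2 groups overlapped, and their order was siPHF13, siPHF13 + TGFβ, siControl and siControl + TGFβ. Between the TGFβ-treated groups SMAD6 fell by 0.70 on the log2 scale (SE 0.12, limma adjusted p = 0.000271), to 0.617 of its level, and the call held without each library in turn. Depletion without TGFβ gave -0.56 (SE 0.12, adjusted p = 0.00160), under the fold threshold by a small margin, and -0.59 without siControl replicate 2, which was called. TGFβ in siControl cells gave 0.578 (SE 0.12, limma adjusted p = 0.00426), again just under the fold threshold, and passed without siControl replicate 1 (0.61) or siControl + TGFβ replicate 2 (0.60). In siPHF13 cells TGFβ gave 0.44 (SE 0.12, adjusted p = 0.0679). The difference of both TGFβ responses was -0.14 (95% interval -0.50 to 0.22), so a difference in response was not detectable with 2 libraries per group.

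Since SMAD6 and SMAD1 were both higher with TGFβ, their ratio per kb barely differed between siControl (0.313 and 0.300) and siControl + TGFβ (0.323 and 0.322). It was 0.222 and 0.208 in siPHF13 and 0.245 and 0.247 in siPHF13 + TGFβ. All 4 siPHF13 libraries were below all 4 siControl libraries.

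ID1 had the highest level per kb of the list, with 2948 to 3151 normalized counts per kb in siControl against 739 to 744 for ID3 and 77.0 to 92.7 for ID2. It is a widely used readout of BMP SMAD activity. Its normalized counts were 3098 and 2898 in siControl, 3182 and 2837 in siPHF13, 2724 and 2640 in siControl + TGFβ, and 2596 and 3065 in siPHF13 + TGFβ. The groups overlapped in every comparison except TGFβ in siControl cells, where both treated libraries were lower. There the log2 difference was -0.16 (SE 0.09, 95% interval -0.35 to 0.03, limma adjusted p = 0.254). Depletion gave 0.0041 without TGFβ (95% interval -0.18 to 0.19) and 0.07 with TGFβ (95% interval -0.11 to 0.26). The 95% intervals of ID1 lay inside the fold threshold in every comparison, and the sign of both depletion differences turned in some of the alternative analyses.

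ID2 was low. Its normalized counts were 120.5 and 100.01 in siControl, 148 and 92.7 in siPHF13, 112 and 175 in siControl + TGFβ, and 129.5 and 123 in siPHF13 + TGFβ. The libraries of 1 group differed by up to 46.1% of their mean and all comparisons overlapped. The log2 differences were 0.09, 0.35, -0.15 and 0.11 for depletion, TGFβ in siControl cells, depletion under TGFβ and TGFβ in siPHF13 cells, each with an SE of 0.27. None passed the test. The 95% intervals ran from -0.48 to 0.67, -0.22 to 0.92, -0.72 to 0.43 and -0.47 to 0.68 in this order, so smaller differences were not detectable.

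ID3 was the ID gene that rose with TGFβ. It had 702 and 706 normalized counts in siControl and 1264 and 1081 in siControl + TGFβ, and it rose 1.66-fold (log2 fold change 0.73, SE 0.10, limma adjusted p = 0.000158), with 0.62 to 0.84 when each library was left out in turn. In siPHF13 cells ID3 had 1009.6 and 942 normalized counts without and 1100.04 and 1075 with TGFβ. There the log2 difference with TGFβ was 0.16 (SE 0.10, adjusted p = 0.538). Depletion alone gave 0.47 (SE 0.10, limma adjusted p = 0.00130), which passed the adjusted p but not the fold threshold. Between the TGFβ-treated groups the difference was -0.10 (95% interval -0.31 to 0.10). The siControl libraries without TGFβ thus lay below the other 6.

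The test of the difference in TGFβ response gave -0.57 for ID3 (SE 0.14, 95% interval -0.87 to -0.28), with an unadjusted p of 0.000994 in the limma fit and an adjusted p of 0.125. A smaller response of ID3 in siPHF13 cells is therefore not called. The spline adjustment for GC and length gave -0.65 (adjusted p = 0.0398). For all 8 genes 0 interactions were called, where 0.308% of all genes were, while 2 genes, ID3 and SMAD1, had an unadjusted p under 0.05. edgeR and DESeq2 on recovered reads called 0 as well. The siControl libraries without TGFβ enter both the depletion and the TGFβ comparison, so the values of ID3 in these comparisons are not independent of each other.

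Relative to ID1, ID3 was 0.234 and 0.252 per kb in siControl and 0.328 and 0.344 in siPHF13. With TGFβ the ratio was 0.480 and 0.424 in siControl and 0.438 and 0.363 in siPHF13 cells. ID3 thus differed between groups while ID1 stayed within 2596 and 3182 normalized counts.

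**Figure D3:**
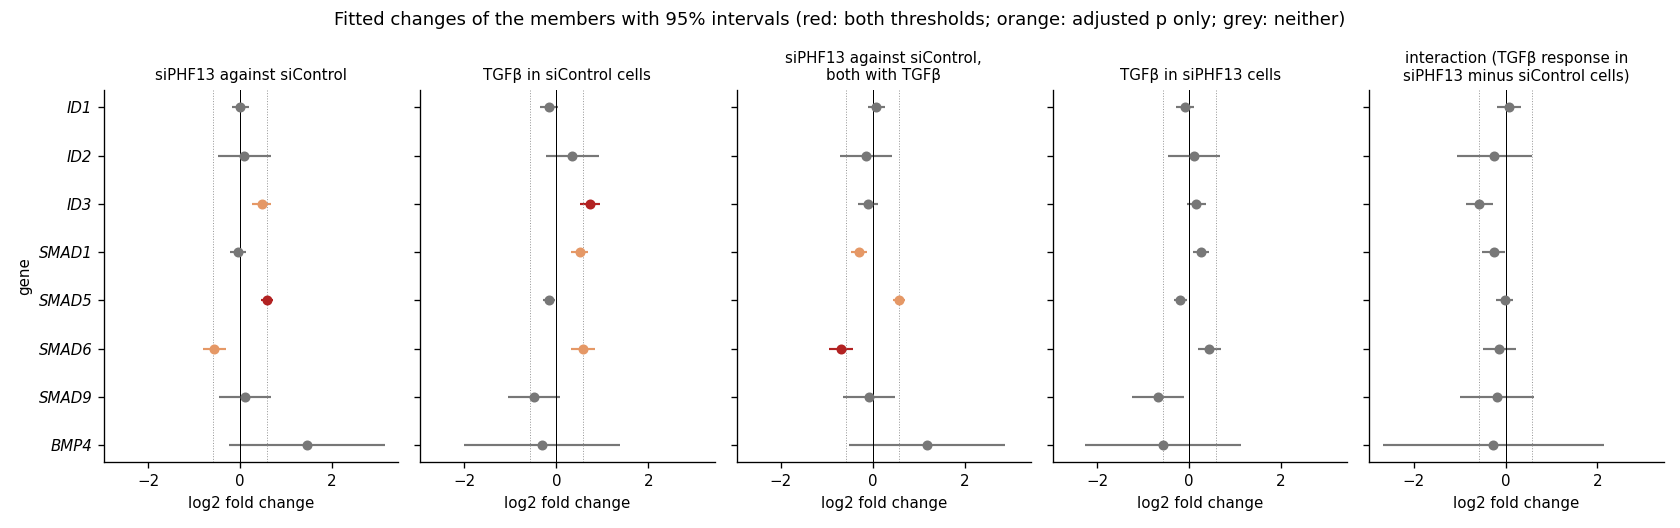
Fitted log2 fold change (x axis) of each gene in each of 4 comparisons and the interaction, with 95% intervals from limma over 8 libraries and dotted lines at a log2 fold change of 0.58 in both directions. Red points passed both thresholds, orange points the adjusted p alone and grey points neither, and SMAD5, ID3 and SMAD6 are red in 1 comparison each.

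Across the 8 libraries the genes varied in different ways, which is described here by Pearson correlations of log2 values over libraries that share treatments. SMAD1 and SMAD6 correlated at 0.88, and SMAD5 and SMAD6 at -0.92. ID1 and ID3 correlated at -0.46 and ID3 and SMAD1 at 0.69. The search for genes of like pattern covered 11200 genes whose mean was 100 normalized counts or more, and 11201 for SMAD9 and BMP4. SMAD6 followed CDKN1A (0.999), which encodes the CDK inhibitor p21, and ARHGEF40 (0.993) most closely. SMAD1 followed ITGA5 (0.998), an integrin chain that binds fibronectin, and ELK3 (0.997). SMAD5 followed SSFA2 (0.995) and NMT1 (0.995). ID3 followed TMEM156 (0.988) and SLC18A2 (0.984). The genes nearest to the members with weak or no group differences had lower values. They were OSGEPL1 (0.948) and ARV1 (0.948) with ID1, and TNPO1 (0.928) and SFI1 (0.924) with ID2. Likewise they were SYT9 (0.930) and RUFY2 (0.926) with SMAD9, and PEX14 (0.953) and TCEA3 (0.952) with BMP4. These values describe 8 libraries in 4 shared groups and say nothing of shared control.

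The rest of the BMP pathway was read from 6 lists of 62 genes, of which 40 were in the table. Depletion without TGFβ gave 3 of 40 called higher (7.95% of all genes) and 4 called lower (10.4%), shares near those of all genes. With TGFβ depletion gave 4 higher (8.81% of all genes) and 9 lower (11.7%). TGFβ gave 6 higher (3.27% of all genes) and 2 lower (1.52%) in siControl cells. In siPHF13 cells it gave 5 higher and 0 lower, where 1.35% of all genes were called in either direction. For the latter, 2 genes had an unadjusted p under 0.05 in the lower direction, and edgeR and DESeq2 also called 0. The median log2 difference of the 40 genes was -0.16, -0.25, 0.22 and 0.07 in these comparisons, in this order, beside a median within 0.01 of zero for all genes. In the interaction 0 of 40 were called by limma, 9 had an unadjusted p under 0.05, and DESeq2 called 1.

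Among 7 ligands in the table, GDF5 and BMP5 rose and BMP2 fell in depleted cells. GDF5, a ligand known from joint formation, had 14.2 and 11.7 normalized counts in siControl and 72.6 and 71.0 in siPHF13, and it rose by 2.39 on the log2 scale (SE 0.49, limma adjusted p = 0.00130). With TGFβ it was 8.62 and 9.26 in siControl against 71.2 and 26.0 in siPHF13 cells, a difference of 2.15 that lost its call without siPHF13 + TGFβ replicate 1 (1.44). BMP5 had 414 and 516 normalized counts in siControl and 877 and 979.5 in siPHF13, and rose by 1.00 without and 1.51 with TGFβ. BMP2, a potent activator of the same receptors, had 56.0 and 57.7 normalized counts in siControl and 7.96 and 24.7 in siPHF13, and fell by 1.93 on the log2 scale (adjusted p = 0.00194). Its call was lost with DESeq2 on recovered reads, which lacked siPHF13 replicate 1 (-1.20, adjusted p = 0.0504). Its calls with TGFβ, -1.14 for depletion (adjusted p = 0.0365) and 1.67 in siPHF13 cells (adjusted p = 0.0492), were lost when any of 6 and any of 7 libraries, in this order, was left out, and the latter became 0.91 without siPHF13 replicate 1. The latter was also lost with edgeR (0.94, adjusted p = 0.425), with DESeq2 (0.94, adjusted p = 0.640) and in a fit of the libraries compared alone (adjusted p = 0.183). BMP5 was called lower by 0.66 with TGFβ in siControl cells, but not without siControl replicate 2 (-0.50) or siControl + TGFβ replicate 2 (-0.56). BMP6 lay between 1996 and 3098 normalized counts and was not called in any comparison. Past the adjusted p only, BMP6 was higher by 0.49 with TGFβ in siControl cells (limma adjusted p = 0.00155) and by 0.33 after depletion without TGFβ (adjusted p = 0.00662).

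Of 8 receptors and co-receptors, 1 was called lower after depletion without TGFβ (10.4% of all genes) and 3 with TGFβ (11.7%), too few genes to read a result about the list. ACVR2B, a type II receptor, had 444 and 369 normalized counts in siControl and 231 and 228 in siPHF13. It fell by 0.82 on the log2 scale without and by 0.92 with TGFβ. BMPR2, the main type II receptor for BMPs, had 5214 and 5496 normalized counts in siControl, 10420 and 10199 in siControl + TGFβ, and 7414 and 6233 in siPHF13 + TGFβ. It rose by 0.95 with TGFβ in siControl cells (limma adjusted p = 2.49e-06) and was lower by 0.60 in TGFβ-treated siPHF13 cells. This last call ended without siPHF13 + TGFβ replicate 2 (-0.48) and with the spline adjustment (-0.36). Its smaller response in depleted cells had an interaction of -0.57 (adjusted p = 0.0447), under the fold threshold. BMPR1B, a type I receptor, was low and was called lower in TGFβ-treated siPHF13 cells (-1.24, adjusted p = 0.0386), a call lost when any of 5 libraries was left out, with -0.97 without siPHF13 + TGFβ replicate 2. It was also lost with DESeq2 (adjusted p = 0.0866), with the spline adjustment (0.0763) and in a fit of the libraries compared alone (0.0576).

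Of the common and inhibitory mediators all 8 were in the table. SMAD7, which blocks both branches, had 968 and 1046 normalized counts in siControl, 2038 and 2218 in siControl + TGFβ, 890.2 and 916 in siPHF13, and 1507 and 1578 in siPHF13 + TGFβ. It rose with TGFβ in both backgrounds, by 1.08 and 0.77 on the log2 scale. SMAD7 was lower by 0.46 in TGFβ-treated siPHF13 cells, past the adjusted p only. SKIL, a corepressor of SMADs, rose by 1.25 and 0.89 with TGFβ and was called lower after depletion by 0.62 without and 0.98 with TGFβ, the former not after the spline adjustment (-0.46). SMURF1, a ubiquitin ligase that targets SMAD1 and SMAD5, lay between 8993 and 9089 normalized counts in siControl and between 6020 and 6138 in siPHF13. Its depletion difference was -0.57 without TGFβ, past the adjusted p only, and -0.78 between the TGFβ-treated groups (limma adjusted p = 2.13e-07). TGFβ itself raised SMURF1 by 0.35 in siControl cells (adjusted p = 0.00116), past the adjusted p only. SMURF2 rose by 0.62 with TGFβ in siControl cells. SMAD4 was not called in any comparison.

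Among the 8 extracellular antagonists and modulators, NOG was called higher in all 4 comparisons. NOG encodes noggin, which binds BMP2, BMP4 and related ligands and keeps them from their receptors. It had 449 and 372 normalized counts in siControl, 1310 and 1011 in siPHF13, 846 and 805 in siControl + TGFβ, and 1637 and 1829 in siPHF13 + TGFβ. No 2 groups overlapped, and NOG rose by 1.49 with depletion (SE 0.13, limma adjusted p = 6.99e-07), by 1.01 with TGFβ, and by 1.07 with depletion under TGFβ. In siPHF13 cells TGFβ gave 0.59, a call lost without siPHF13 replicate 2 (0.40) or siPHF13 + TGFβ replicate 2 (0.51) and with the spline adjustment (0.52). FSTL1, a secreted follistatin-like protein, rose by 0.88 and 0.77 with TGFβ and fell by 0.63 and 0.74 with depletion, and both depletion calls were lost with the spline adjustment (-0.51 and -0.57). NBL1, a DAN family antagonist, was called higher by 0.69 in TGFβ-treated siPHF13 cells, but not without siPHF13 + TGFβ replicate 2 (0.57) and not with that adjustment (0.54). CHRD (-1.57) and FST (-1.39) were called lower in the same comparison. The calls were lost when any of 4 libraries was left out, with -1.02 for CHRD without siControl + TGFβ replicate 1 and -0.50 for FST without siPHF13 + TGFβ replicate 1. They were also lost with DESeq2 (adjusted p = 0.0554 for CHRD and 0.0619 for FST) and in a fit of the libraries compared alone (0.0767 and 0.0704), and that of FST with edgeR (0.0713).

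**Figure D4:**
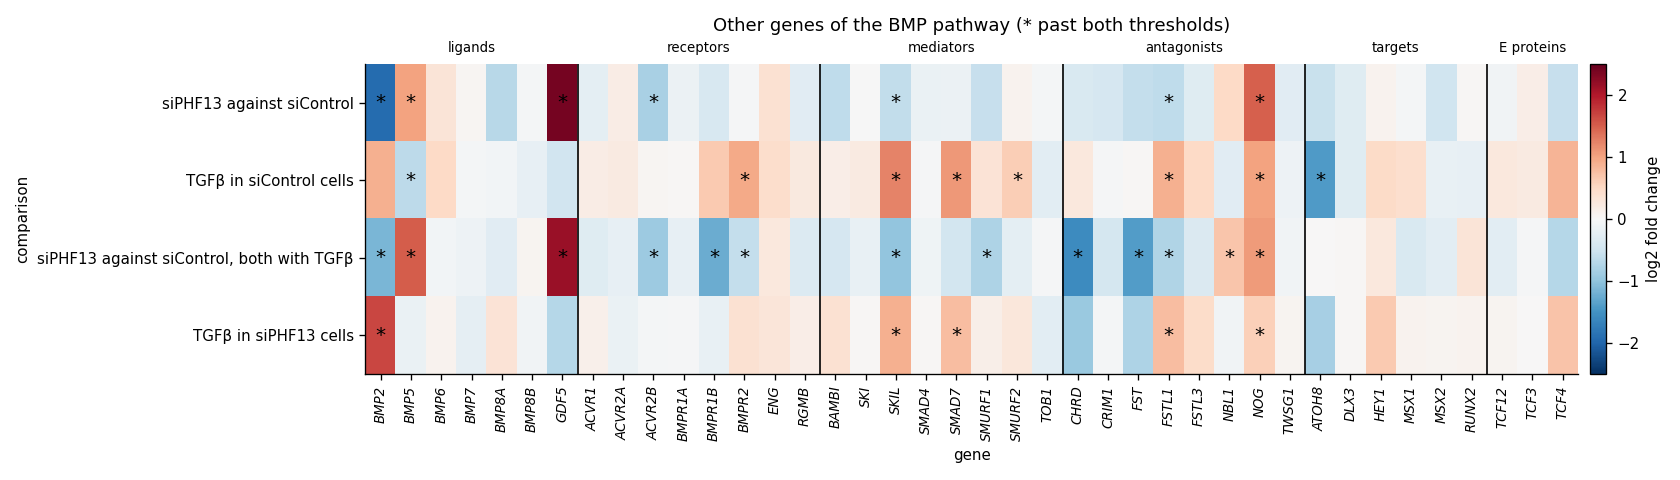
Fitted log2 fold change (colour, red higher and blue lower) of the 40 other BMP pathway genes (x axis, grouped by role) in 4 comparisons (y axis), with a star where both thresholds were passed. NOG and SKIL carry a star in all 4 comparisons, and the E proteins carry none.

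Among 6 other BMP target genes only ATOH8, a transcription factor that responds to BMP signals in endothelium, was called in any comparison. It had 88.2 and 62.2 normalized counts in siControl and 30.2 and 24.7 in siControl + TGFβ and fell by 1.41 on the log2 scale (SE 0.36, limma adjusted p = 0.0162), opposite to ID3 under the same treatment. The call was lost without siControl replicate 1 (-1.16) or siControl + TGFβ replicate 2 (-1.27). MSX1, MSX2, DLX3, HEY1 and RUNX2 were not called in any comparison. Past the adjusted p only, the homeobox gene MSX2 was lower by 0.50 after depletion (limma adjusted p = 0.00314). Its relative MSX1 was lower by 0.39 after depletion under TGFβ (adjusted p = 0.0337), also past the adjusted p only. The E proteins TCF3, TCF4 and TCF12, which ID proteins capture, were also present and not called. Past the adjusted p only, TCF12 was higher by 0.26 with TGFβ in siControl cells (adjusted p = 0.0134) and lower by 0.27 with depletion under TGFβ (adjusted p = 0.00274).

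The genes lie on GRCh37, the build named for the authors' alignment, at chr20:30193086-30194318 for ID1, chr2:8818975-8824591 for ID2, chr1:23884417-23885992 for ID3, chr4:146402346-146480328 for SMAD1, chr5:135468534-135524435 for SMAD5, chr15:66994574-67075187 for SMAD6, chr13:37418968-37495024 for SMAD9 and chr14:54416454-54425479 for BMP4 in the GENCODE annotation. Exons of an antisense RNA overlap exons of ID2 by 145 bases (ID2-AS1), of SMAD1 by 376 bases (SMAD1-AS1), of SMAD5 by 610 bases (SMAD5-AS1) and of BMP4 by 506 bases. Whether counting used strand is not given in the sources used here, so reads of these RNAs cannot be told from those of the named genes there. ID1, ID3, SMAD6 and SMAD9 share no exon bases with another annotated gene.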

How the data were processed

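Poly(A) RNA of 8 Panc-1 libraries was sequenced as paired reads. Per the labels and the study's methods, the authors trimmed reads with Trim Galore 0.4.1, mapped them with STAR 2.7.0 (hg19), counted exonic reads with HTSeq 0.12.4 and normalized with DESeq2. The deposited table holds a signal for 13307 genes in each library, that is gene counts that the authors scaled by size factors of DESeq2. Tables of the authors' own comparisons (fold changes with p-values) were not used. Columns were matched to groups by name, where NT stood for the non-targeting control siRNA, and 0 columns belonged to other samples.

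Comparisons came from 1 limma fit (limma 3.58.1, R 4.3.3; trended prior variance) on log2(normalized count + 1) over all 8 libraries, two-sided, with Benjamini-Hochberg adjustment over 13307 genes. Fold changes are on that scale, which understates changes of low genes. Called genes had an adjusted p under 0.05 and a log2 fold change above 0.58 in size, the thresholds of the study. Requiring 10 or more normalized counts in 2 or more libraries removed 0 genes. The genes described and the lists were chosen with earlier results of these data known. All members in the table are named, as are called genes of the lists, at most 4 per list, direction and comparison, and the 2 genes most correlated with each member. Genes named without a call, such as BMP6 and SMAD4, were added as context.

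All values (100% within 0.001) were whole multiples of a step of 0.901 to 1.08 per library, which gave whole reads. The step of siPHF13 replicate 1 (0.995) was too near 1, so edgeR 4.0.16 and DESeq2 1.42.0 ran on 7 libraries and assumed that the lone siPHF13 library varies like the others. Other alternatives were a pseudocount of 5, no minimum, TMM factors, only the libraries compared, a replicate block, a spline correction (5 degrees of freedom) for GC content and transcript length (98.4% of genes matched), the adjusted p alone, and each library left out in turn. The procedure was tested on simulated data in which only genes above a minimum level changed. Their changes had a fixed size, larger than the called differences of SMAD5, SMAD6 and ID3. That test does not bear on smaller changes or on low genes such as BMP4. Levels per kb use GENCODE canonical transcripts (GRCh37), and promoters are from RefSeq (GRCh38.p14).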

Additional observations from a re-analysis of the deposited data

Results flagged for a closer look

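None of the 8 genes was picked out here. In the list of direct TGFβ targets, chosen with earlier results known, 4 of 7 genes had a called interaction, against 0.308% of all genes. Their response to TGFβ was smaller in siPHF13 than in siControl cells by the interaction term of the limma fit, adjusted over all genes. The difference in log2 response was -0.74 for PMEPA1 (adjusted p = 0.00118), -0.66 for CTGF (adjusted p = 0.00909), -0.61 for TGFBI (adjusted p = 0.00909) and -0.68 for LTBP2 (adjusted p = 0.00985). All 4 rose with TGFβ in siControl cells, by 2.20, 1.32, 1.06 and 1.50 in this order, and TGFβ gave 1.46, 0.66, 0.45 and 0.81 in siPHF13 cells, of which that of TGFBI was under the fold threshold. Depletion without TGFβ gave -0.21 for PMEPA1, 1.01 for CTGF, 1.14 for TGFBI and 0.89 for LTBP2. Between the TGFβ-treated groups depletion gave -0.95 for PMEPA1, 0.35 for CTGF, 0.54 for TGFBI and 0.21 for LTBP2. Of these only PMEPA1 passed the fold threshold, so CTGF, TGFBI and LTBP2 were not lower in TGFβ-treated siPHF13 cells. The untreated siControl libraries enter both the TGFβ response of siControl cells and the depletion difference without TGFβ.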

How the results depend on the processing

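With 2 libraries per group, small differences of low genes cannot be seen, and SMAD5 and SMAD6 lay within 0.03 of the fold threshold in 4 differences, so their calls depend on it. The replicate numbers did not pair the libraries (correlations of deviations -0.09 to 0.05). A replicate block moved the called genes from 2448 to 2438, 637 to 630, 2726 to 2711, 179 to 171 and 41 to 39 and changed no call among the 8 genes, while among the other pathway genes it ended the call of BMP2 with TGFβ in siPHF13 cells (adjusted p = 0.0522). edgeR on recovered reads called 2265, 624, 2719, 148 and 27 genes in these comparisons and DESeq2 2185, 610, 2630, 170 and 56. Of the differences of the 8 genes, 361 of 392 kept direction and side of the threshold in the other alternatives and 284 of 320 with 1 library left out. Part of this agreement was fixed in advance. The minimum removed 0 genes, so dropping it repeated the main fit, and the adjusted p alone kept the main fit's directions. The replicate block and the fit of only the libraries compared kept its fold changes. A library left out cannot move the fold change of a comparison that it is not part of. Where a value moved, the cause was not tested.

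By adjusted p alone the called members became 2 higher and 1 lower for depletion, 3 higher for TGFβ in siControl cells, and 1 higher and 2 lower for depletion under TGFβ. In a fit of only the libraries compared, depletion gave 2 higher. With the spline adjustment for GC and length, with and without the replicate block, depletion under TGFβ gave 1 higher (SMAD5) and the interaction gave 1 lower (ID3). With 1 library left out, the counts ranged from 0 to 2 higher and from 0 to 1 lower for depletion, from 1 to 2 higher for TGFβ in siControl cells, and from 0 to 1 higher for depletion under TGFβ.

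Differences that were not called changed sign as follows. For depletion, ID1 became -0.078 with edgeR, -0.079 with DESeq2 and -0.13 with the spline adjustment, ID2 became -0.25 with edgeR and -0.25 with DESeq2, and SMAD1 became 0.011 with the adjustment. For TGFβ in siControl cells, BMP4 became 0.20 with edgeR and 0.22 with DESeq2. For depletion under TGFβ, the adjustment gave -0.13 for ID1 and 0.093 for SMAD9. In the interaction, the adjustment gave -0.0048 for ID1 and 0.049 for SMAD5, and ID2 was 0.066 with edgeR and 0.063 with DESeq2. The adjustment gave the same values with the replicate block.

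With 1 library left out, differences that changed sign ranged, for depletion, from -0.079 to 0.087 for ID1, from -0.24 to 0.43 for ID2 and from -0.16 to 0.39 for SMAD9, and for TGFβ in siControl cells from -1.64 to 1.02 for BMP4. For depletion under TGFβ they ranged from -0.047 to 0.19 for ID1, from -0.47 to 0.17 for ID2, from -0.22 to 0.0086 for ID3, from -0.23 to 0.076 for SMAD9 and from -0.15 to 2.51 for BMP4. For TGFβ in siPHF13 cells they ranged from -0.21 to 0.029 for ID1 and from -0.23 to 0.44 for ID2. In the interaction they ranged from -0.051 to 0.19 for ID1, from -0.58 to 0.093 for ID2, from -0.076 to 0.035 for SMAD5, from -0.46 to 0.087 for SMAD9 and from -1.60 to 1.06 for BMP4.

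Among the 40 other pathway genes, the adjusted p alone gave 6 higher (23.1% of all genes) and 11 lower (24.3%) for depletion. Both thresholds gave 3 and 4. For TGFβ in siControl cells the adjusted p alone gave 11 higher (9.21% of all genes) and 2 lower (6.67%), against 6 and 2 with both thresholds. For depletion under TGFβ it gave 5 higher (24.5% of all genes) and 19 lower (25.9%), against 4 and 9. For TGFβ in siPHF13 cells it gave 8 higher and 0 lower, against 5 and 0. The share of all genes by adjusted p alone was not taken there. The spline adjustment gave 2 lower for depletion. Leaving out 1 siControl library gave 5 lower for depletion under TGFβ and 1 lower for TGFβ in siControl cells (2), which became 0 without siControl + TGFβ replicate 2, and TGFβ in siPHF13 cells gave 3 higher without siPHF13 + TGFβ replicate 2.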
